A study of Mus musculus with 4 samples.

Results

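The genes described here encode the machinery of non-homologous end joining, the pathway that rejoins the broken ends of DNA during antigen receptor gene assembly. They were taken by gene symbol as 10 genes of the 24411 in the deposited count table: Xrcc6, Xrcc5, Prkdc, Dclre1c, Xrcc4, Lig4, Nhej1, Polm, Poll and Trp53bp1. All 10 passed the filter on low counts, which kept 13507 genes. RNA was sequenced from pro-B cells, early B cell precursors sorted by flow cytometry from C57BL/6 bone marrow as B220+CD43+HSA+ cells (HSA is CD24). The control group was Tnpo3+/+ mb1Cre (mice 55 and 69) and the knockout group Tnpo3fl/fl mb1Cre (mice 51 and 63), so that each group held 2 libraries and both carried mb1Cre, a Cre recombinase driven from the Cd79a locus of the B lineage. The age of the mice is not given in the sources used here. Tnpo3 encodes transportin 3, a nuclear import receptor. Tnpo3 itself was at 159 and 148 CPM (counts scaled to a common library total, comparable between libraries) in the controls and at 79.7 and 68.8 CPM in the knockouts, and whole-gene counts do not show which exons or which cells the remaining reads came from. Total counts were 26211372 to 40647384 per library. All 12 B-lineage marker genes examined had counts in every library, but their summed level was 8021 to 8507 CPM in the controls and 1944 to 2259 CPM in the knockouts, where that of 14 dendritic cell markers was 9186 to 12160 CPM. The knockout libraries, though labelled pro-B, thus held less RNA of these B-lineage genes.

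In end joining, a ring of the Ku70 and Ku80 proteins, the products of Xrcc6 and Xrcc5, slides onto each broken end and recruits the kinase DNA-PKcs, the product of Prkdc. The nuclease Artemis, from Dclre1c, opens hairpin ends, the X-family polymerases from Polm and Poll fill gaps, and the ligase from Lig4, held in a complex with its partner from Xrcc4 and assisted by XLF from Nhej1, seals the break. In developing lymphocytes this pathway joins the V, D and J segments cut by the recombinase of Rag1 and Rag2, and 53BP1, the product of Trp53bp1, holds ends together in chromatin and protects them from resection.

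Lig4, Polm and Xrcc6 fell in the knockout, and 0 of the 10 genes rose, by edgeR's quasi-likelihood test with p-values adjusted by Benjamini-Hochberg over all genes tested and a threshold of 0.05. The 3 of 10 that fell stood beside a background of 10.9% of all tested genes called lower and 11.3% called higher. At an unadjusted p under 0.05, 4 members were lower and 0 higher, and DESeq2, limma-voom and limma on the authors' normalized values called 4, 3 and 3 lower and 0 higher. In 7 members both knockout libraries lay below both controls, which 34.6% of all genes did, and in 0 members both lay above, which 33% of all genes did. The median log2 fold change of the 10 was -0.70, against -0.02 over all genes tested. In bulk RNA, fewer cells that express a gene and less of its RNA per cell cannot be told apart.

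**Figure D1:**
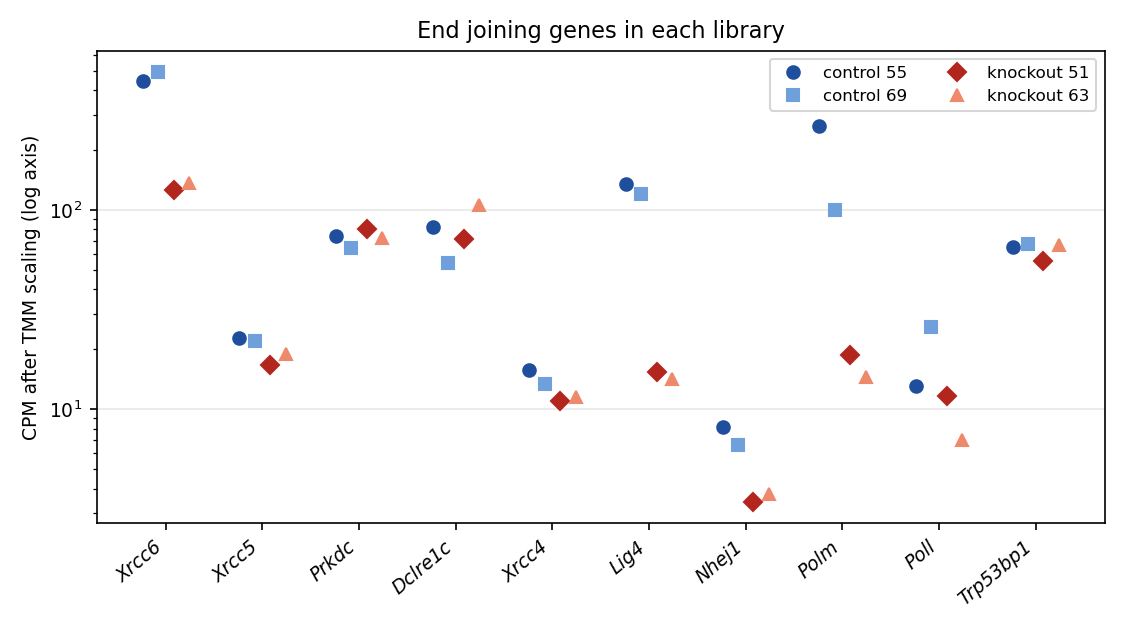
Level of each end joining gene in each library, in CPM after TMM scaling on a log axis; circles and squares are controls 55 and 69, diamonds and triangles knockouts 51 and 63. The knockouts lie far below the controls for Lig4 (15.3 and 14.2 against 135 and 120 CPM), Polm and Xrcc6, and overlap them for Prkdc, Dclre1c and Trp53bp1.

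The 3 genes called lower are shown with the 250 bases before their annotated RefSeq starts (GRCm38.p6, 5′ to 3′ on the gene's strand). They were chosen by that call, and whether they share a regulator was not tested. Capitals mark matches, on either strand, to 9 short motifs that were searched: the E2A E-box CAGGTG, the EBF1 motif TCCCNNGGG, the ETS motif CCGGAAG, the RUNX motif TGTGGTT, the FOXO motif TGTTTAC, the Sp1 GC box GGGCGG, the CCAAT box of NFY, the NRF1 motif GCGCATGCG and the E2F motif TTTCGCGC. The windows are chr8:9977681-9977930 (minus strand) for Lig4, chr11:5838017-5838266 (minus strand) for Polm and chr15:82016119-82016368 (plus strand) for Xrcc6. The GENCODE annotation, used below for gene spans, starts Xrcc6 further upstream, at 81987835. The printed Xrcc6 window therefore lies inside that span and is not the sequence before the GENCODE start.
Lig4: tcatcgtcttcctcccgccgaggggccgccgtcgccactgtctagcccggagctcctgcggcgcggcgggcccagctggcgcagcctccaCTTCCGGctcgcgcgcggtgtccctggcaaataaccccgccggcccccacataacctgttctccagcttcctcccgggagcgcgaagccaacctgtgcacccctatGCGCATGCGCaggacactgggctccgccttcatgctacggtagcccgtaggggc
Polm: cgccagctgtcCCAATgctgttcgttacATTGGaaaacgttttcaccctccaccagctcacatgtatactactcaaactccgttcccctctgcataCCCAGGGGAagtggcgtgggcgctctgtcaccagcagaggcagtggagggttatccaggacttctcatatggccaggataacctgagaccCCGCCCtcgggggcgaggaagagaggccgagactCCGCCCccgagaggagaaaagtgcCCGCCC
Xrcc6: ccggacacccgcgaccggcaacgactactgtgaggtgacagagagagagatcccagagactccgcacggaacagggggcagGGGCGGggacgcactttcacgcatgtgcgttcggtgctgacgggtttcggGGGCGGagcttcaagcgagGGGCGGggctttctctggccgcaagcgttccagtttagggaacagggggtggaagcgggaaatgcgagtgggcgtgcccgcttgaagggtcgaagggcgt

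The Lig4 window held 1 ETS match and a pair of overlapping NRF1 matches that read the same palindrome on the opposite strands. ETS matches were found in 6.91% and NRF1 matches in 1.45% of 32841 RefSeq windows of the same length. The printed windows of Lig4, Polm and Xrcc6 held 70%, 59.2% and 65.2% G and C bases, against a median of 52.4% over all windows. The shares over all windows were not matched for this. The Polm window held 1 EBF1 match (5.6% of windows), 3 GC boxes (32.7%) and 2 CCAAT boxes (33.9%), and the Xrcc6 window held 3 GC boxes. No motif of the 9 was present in all 3 printed windows. Lig4 had a second, downstream start, and the window before it held 2 GC boxes and 1 ETS match, so with either start counted all 3 genes had a GC box, as did Xrcc4, Nhej1, Dclre1c and Trp53bp1. The table held windows for 8 of the 10 genes. A match is a run of letters and not a measured binding site.

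Lig4 encodes DNA ligase IV, the ligase of this pathway, and lies on chromosome 8 (GRCm38, 9969049 to 9977686, minus strand), with no exon shared with another annotated gene. It had 4425 and 3203 counts for control mice 55 and 69 against 617 and 429 for knockout mice 51 and 63, or 135, 120, 15.3 and 14.2 CPM. The groups were far apart and the 2 libraries within each were close. The level was 8.66-fold lower in the knockout, a log2 fold change of -3.11 ± 0.15 (SE) with a 95% interval of -3.49 to -2.73 and an edgeR adjusted p of 0.00431. By p-value Lig4 ranked number 5 of the 13507 genes tested.

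Xrcc4 encodes the scaffold that binds and stabilizes ligase IV. It was at 15.7 and 13.3 CPM in the controls and 11.0 and 11.5 CPM in the knockouts, so that the knockouts lay just below the controls. Its log2 fold change of -0.37 ± 0.22 (SE) did not pass (edgeR adjusted p of 0.29), and the 95% interval ran from 0.523 to 1.14 times the control level. Of the exonic bases of Xrcc4 112 are shared with Tmem167 on the opposite strand, a gene at 94.8 to 111 CPM over the 4 libraries. Nhej1, which encodes the ligation cofactor XLF, was the lowest member by counts, with 113 to 267 per library, where counting alone gives a relative error of up to 9.41%. It was at 8.16 and 6.58 CPM in the controls and 3.44 and 3.75 CPM in the knockouts. The groups did not overlap. At a log2 fold change of -1.04 ± 0.30 (SE), edgeR gave an adjusted p of 0.0646 and DESeq2 of 0.0236, with a range of 0.0236 to 0.222 over 13 alternative analyses. Nhej1 thus stood on either side of the threshold depending on the tool.

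Xrcc6, the gene of Ku70, was the member with the highest level. It was at 444 and 490 CPM for control mice 55 and 69, against 126 and 137 CPM for knockout mice 51 and 63. The libraries of a genotype differed little and the groups were well separated. The log2 fold change was -1.83 ± 0.15 (SE), a 3.55-fold lower level, with an edgeR adjusted p of 0.00497. The gene lies on chromosome 15 (81987835 to 82040085, plus strand), and 344 of its 4476 exonic bases are shared with Desi1 on the opposite strand. Desi1 was itself lower, at 169 and 188 CPM in the controls and 115 and 90.6 CPM in the knockouts, and since the strand setting of the counting is not given, reads of the shared stretch cannot be assigned to one gene.

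Xrcc5, the gene of Ku80, was at 22.9 and 22.0 CPM in the controls and at 16.7 and 18.9 CPM in the knockouts. The knockouts were below both controls, but the log2 fold change of -0.33 ± 0.19 (SE) did not pass (edgeR adjusted p of 0.26). Its 95% interval ran from 0.57 to 1.11 times the control level, so a fall as large as that of Xrcc6 lay outside it. Prkdc, the gene of the DNA-PKcs kinase, was at 73.9 and 64.4 CPM in the controls and at 80.6 and 72.0 CPM in the knockouts. These ranges overlapped, and the interval of the fold was 0.854 to 1.43 (edgeR adjusted p of 0.53).

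Dclre1c, the gene of the hairpin-opening nuclease Artemis, was at 81.7 and 54.4 CPM for control mice 55 and 69, against 71.0 and 106 CPM for knockout mice 51 and 63. The groups overlapped, and knockout 63 was the highest of the 4 libraries. The log2 fold change was 0.38 ± 0.28 (SE) with an edgeR adjusted p of 0.37. It was 0.73 without control 55 and 0.06 without knockout 63, and did not pass in either case. Knockout 63 over control 55 gave a log2 ratio of 0.37, and knockout 51 over control 69 gave 0.38. Of the exonic bases of Dclre1c 357 are shared with Suv39h2 on the opposite strand, a gene at 15.1 to 16.9 CPM in all 4 libraries.

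The X-family polymerase genes Polm and Poll each varied between the controls, in opposite directions. Polm encodes polymerase mu, which adds and fills nucleotides at coding ends, and was at 265 and 100 CPM for control mice 55 and 69, against 18.7 and 14.5 CPM for knockout mice 51 and 63. Both knockouts were below the lower control by a wide margin. The log2 fold change was -3.46 ± 0.50 (SE), or 11.0-fold lower, with a 95% interval of -4.70 to -2.21 and an edgeR adjusted p of 0.0122. Without control 55 the log2 fold change was -2.56 and without control 69 it was -3.99, so the size of the fall depended on which control was kept, and it passed in both fits.

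Poll encodes polymerase lambda, which fills gaps at the break. It was at 13.0 and 25.9 CPM for control mice 55 and 69, against 11.7 and 6.97 CPM for knockout mice 51 and 63. Control 55 lay close to knockout 51. The log2 fold change of -1.06 ± 0.43 (SE) did not pass (edgeR adjusted p of 0.14), while it was -1.44 with an adjusted p of 0.0292 without control 55, and -0.48 with 0.41 without control 69, the highest adjusted p of the 13 alternatives.

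Trp53bp1, whose product 53BP1 protects broken ends, was at 65.4 and 67.1 CPM in the controls and at 55.6 and 66.9 CPM in the knockouts. The groups overlapped, and the interval of the fold was 0.707 to 1.21 (edgeR adjusted p of 0.63). Of its exonic bases 15.04% are shared with Tubgcp4 on the opposite strand, which was at 44.1 and 39.5 CPM in the controls and at 30.0 and 28.1 CPM in the knockouts, so that part of the reads may belong to either gene.

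**Figure D2:**
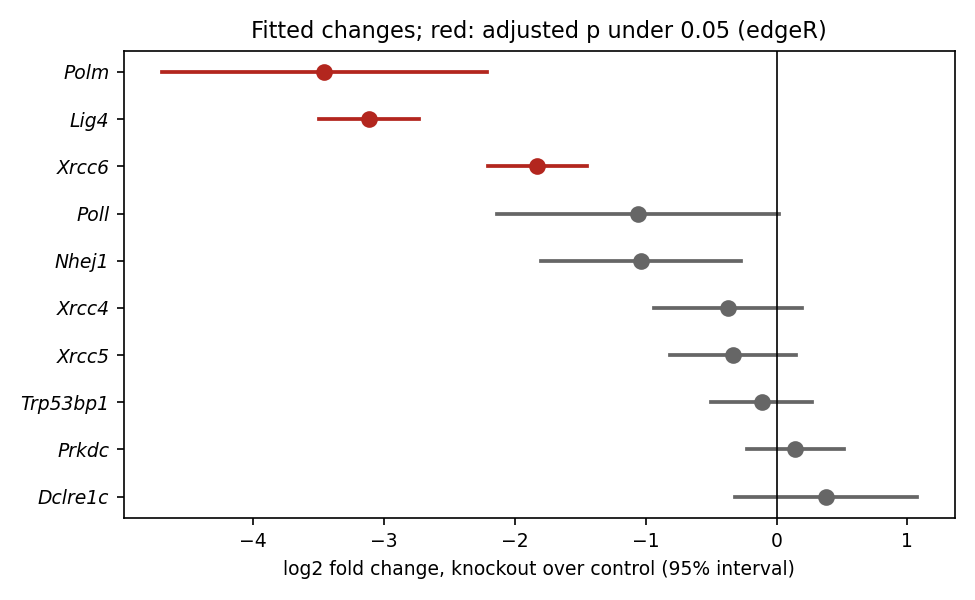
Fitted log2 fold change of each end joining gene, knockout over control (n = 2 libraries each), with its 95% interval; red marks an edgeR adjusted p under 0.05. Lig4, Polm and Xrcc6 lie below 0 with intervals that end at -2.73, -2.21 and -1.45, and the interval of Nhej1 also ends below 0 although its adjusted p was 0.0646.

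Levels of different genes were compared as CPM per kilobase of annotated exons, where all exons of a gene are merged. In the controls the order began with Xrcc6 (104 ± 7.34 CPM per kilobase, SD, n = 2), Polm (49.9 ± 31.8) and Lig4 (24.6 ± 2.02), each of which did not overlap its neighbour in the order. Xrcc5 followed at 8.78 ± 0.244, and neighbours among Xrcc5, Poll, Dclre1c and Nhej1 overlapped, while Prkdc, Trp53bp1 and Xrcc4 closed the order at 5.24 to 3.45 CPM per kilobase. In the knockouts Xrcc6 was again first (29.4 ± 1.75), followed by Dclre1c (9.50 ± 2.65) and Xrcc5 (6.98 ± 0.601). Polm stood at place 5 with 4.54 ± 0.811 and Lig4 at place 9 with 2.84 ± 0.142, between Nhej1 at 3.22 and Xrcc4 at 2.67.

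Set against the 13018 tested genes with an annotated length, Lig4 stood at percentile 82.6 of the level per kilobase in the controls and 34.0 in the knockouts, and Polm at 92.6 and 42.2. Xrcc6 stood at 97.2 and 85.3, and Xrcc4 at 37.1 and 33.2. The summed level of the 10 genes was 242 and 204 CPM per kilobase for control mice 55 and 69 against 71.1 and 75.4 for knockout mice 51 and 63. Xrcc6 made up 41.0% and 53.6% of that sum in the controls and 39.6% and 40.6% in the knockouts. Lig4 made up 10.7% and 11.3% and then 4.13% and 3.63%, while the share of Dclre1c was 3.62% and 2.86% and then 10.7% and 15.1%. A share rises when the sum falls, and the level of Dclre1c itself overlapped between the groups. The shares of Xrcc5, Prkdc, Xrcc4, Nhej1 and Trp53bp1 were also higher in both knockouts, as for Prkdc at 2.31% and 2.39% and then 8.59% and 7.24%. That of Polm was lower and that of Poll overlapped.

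Several of these proteins work as partners, so the counts of partner genes were set against each other inside each library, which removes the scaling between libraries. The ratio of Xrcc6 to Xrcc5 counts was 19.4 and 22.3 for control mice 55 and 69 against 7.53 and 7.25 for knockout mice 51 and 63. The balance of the Ku genes was thus 2.82-fold lower in the knockouts. The ratio of Lig4 to Xrcc4 counts was 8.59 and 9.02 in the controls and 1.39 and 1.24 in the knockouts, a 6.72-fold difference with little spread within either genotype. Per kilobase of exon, Lig4 exceeded Xrcc4 by 6.96 and 7.31 times in the controls and by 1.13 and 1.001 times in the knockouts.

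The ratio of Nhej1 to Xrcc4 was 0.518 and 0.493 in the controls and 0.313 and 0.326 in the knockouts. The ratio of Polm to Poll was 20.3 and 3.86 for control mice 55 and 69 against 1.60 and 2.08 for knockout mice 51 and 63. Here the controls differed from each other by more than control 69 differed from the knockouts. The ratio of Dclre1c to Prkdc was 1.11 and 0.845 in the controls and 0.881 and 1.47 in the knockouts, and overlapped. These 5 ratios were compared by an exact two-sided permutation test, in which 2 libraries against 2 cannot give a p below 0.333. The first 4 pairs reached that p and Dclre1c to Prkdc gave 0.667, so no ratio could pass a threshold of 0.05 with or without adjustment over the 5.

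**Figure D3:**
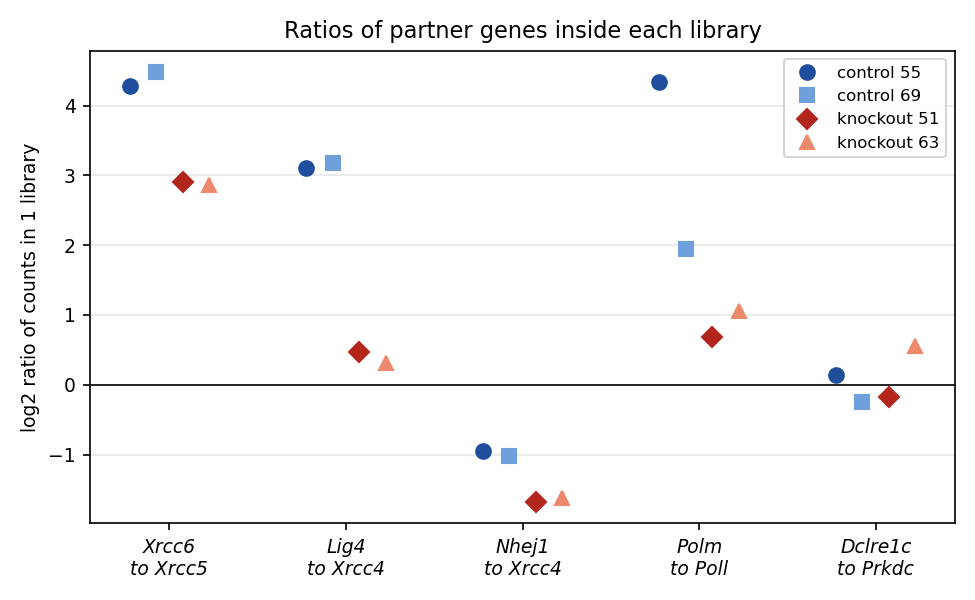
Log2 ratio of the counts of partner genes inside each library; circles and squares are controls 55 and 69, diamonds and triangles knockouts 51 and 63. The knockouts lie below both controls for 4 of the 5 pairs, most clearly for Lig4 to Xrcc4 (3.10 and 3.17 against 0.47 and 0.31), and overlap them for Dclre1c to Prkdc.

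The spread within a genotype was uneven over the 10 genes. Polm was 2.65-fold higher in control 55 than in control 69, and Poll 1.99-fold higher in control 69 than in control 55. Of all tested genes, 95.3% differed less than Polm between the 2 controls, and 89.5% less than Poll. Dntt, which encodes the related polymerase terminal transferase, was 2.82-fold higher in control 69, on the side of Poll. Lig4 and Xrcc6 differed by 1.12-fold and 1.105-fold between the controls. In the knockouts Poll was 1.67-fold higher in mouse 51 and Dclre1c 1.49-fold higher in mouse 63.

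Xist and Y-linked transcripts showed 1 female and 1 male mouse in each genotype (55 and 63 female, 69 and 51 male), so the controls also differ in sex. The female pair gave a log2 ratio of knockout to control of -3.25 for Lig4 and the male pair -2.98, and for Xrcc6 the pairs gave -1.69 and -1.96. For Polm the female pair gave -4.19 and the male pair -2.42. For Poll it was -0.90 and -1.15, and with sex as a block in the edgeR model, which leaves 1 residual degree of freedom, Poll passed at an adjusted p of 0.0205. Dclre1c gave 0.37 in the female pair and 0.38 in the male pair, and in the edgeR model with that block it did not pass (adjusted p of 0.0541). The part of sex in the spread between the controls was not tested, with 1 mouse of each sex per genotype.

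**Figure D4:**
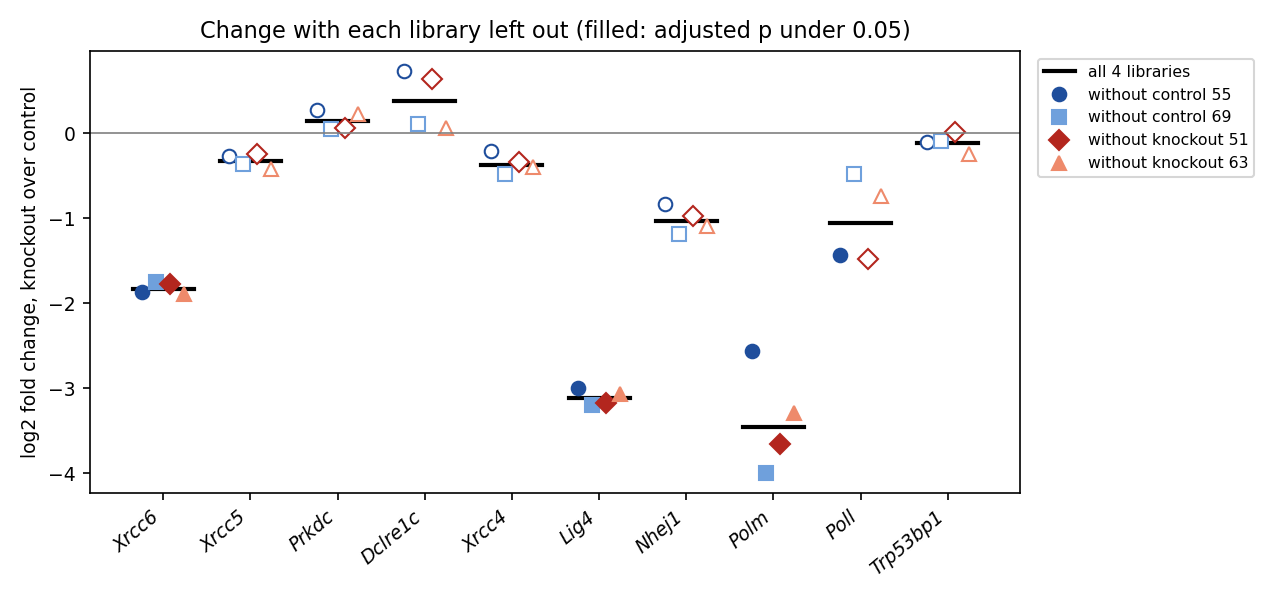
Log2 fold change of each end joining gene, knockout over control, with all 4 libraries (black bar) and with each library left out in turn (symbols; filled where the edgeR adjusted p was under 0.05). Lig4 stays between -3.20 and -2.99 and Xrcc6 between -1.89 and -1.75, while Polm spans -3.99 to -2.56 and Poll -1.48 to -0.48.

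Markers of cell types moved in the same libraries, and their part in the changes above was not tested. Their edgeR counts stand beside 10.9% of all tested genes called lower and 11.3% called higher. Of 12 B-lineage marker genes 9 fell and 0 rose (10 and 0 with DESeq2 and 9 and 0 with limma-voom), with a median log2 fold change of -1.68, in the summed levels given above. Of 14 dendritic cell markers 13 rose, from a summed level of 970.5 to 1957 CPM in the controls. Of 12 NK and innate lymphoid markers 9 rose in edgeR, 11 in DESeq2 and 2 in limma-voom (35.3 to 42.6 CPM against 284 to 1101 CPM). Of 12 T cell markers 7 rose in edgeR, 11 in DESeq2 and 7 in limma-voom (99.8 to 107 against 848 to 1044 CPM). Of 15 myeloid markers 14 fell (4191 to 5371 against 91.5 to 289 CPM), and 6 of 6 tested erythroid markers fell (58.0 to 75.7 against 2.60 to 5.84 CPM), with the globin genes Hba-a1 and Hbb-bs listed at 0 in every library. Of 6 plasma cell markers 2 fell and 1 rose, with 2 higher in DESeq2 (972 to 1213 against 698 to 1043 CPM), and of 5 tested stromal markers 2 fell and 2 rose, with 3 lower in DESeq2 (34.6 to 53.9 against 242 to 252 CPM). Of 14 mitosis genes 13 fell, and edgeR called 0 of 15 replication genes either way, with 1 lower at an unadjusted p under 0.05 and 0 by DESeq2 or limma-voom.

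Against 1000 CPM of the summed B-lineage markers, Xrcc6 was at 55.3 and 57.6 CPM in the controls and at 55.8 and 70.5 CPM in the knockouts. On that scale the groups overlapped. Lig4 was at 16.9 and 14.1 in the controls and at 6.76 and 7.32 in the knockouts, 2.20-fold lower on this summed scale. Polm was at 33.0 and 11.8 in the controls and at 8.28 and 7.46 in the knockouts, below both controls. The other 7 genes were higher in both knockouts than in both controls on this scale, from 1.87-fold for Poll to 5.18-fold for Dclre1c. The marker sum itself was 8021 and 8507 CPM in the controls and 2259 and 1944 CPM in the knockouts. A gene with unchanged CPM therefore rises on this scale by arithmetic. In CPM, Xrcc5, Xrcc4, Nhej1 and Poll had both knockouts below both controls, and Prkdc, Dclre1c and Trp53bp1 overlapped. The marker sum itself changed in make-up. Igll1 was at 4.07% and 11.6% of it for control mice 55 and 69, against 18.5% and 15.2% for knockout mice 51 and 63. Pou2af1 went the other way, from 15.3% and 11.8% for those controls to 3.72% and 4.29% for those knockouts, so it fell by more than the sum. A fold on this scale thus depends on which markers are summed. This scale describes these libraries and carries no test.

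Of 37 other genes of break repair in 4 lists by role, all of which were tested, 8 fell and 1 rose, beside 10.9% of all tested genes called lower and 11.3% called higher. Their median log2 fold change was -0.34, against -0.02 over all genes tested. The counts of the single lists below stand beside the same background. In the list of recombinase and terminal transferase genes 3 of 5 fell. Rag1, the catalytic recombinase subunit, was at 1957 and 1933 CPM in the controls and at 475 and 305 CPM in the knockouts (log2 fold change -2.32 ± 0.27, SE, edgeR adjusted p of 0.00812). Rag2, its partner, was at 148 and 234 CPM in the controls and at 59.1 and 42.8 CPM in the knockouts, a change of -1.91 ± 0.28 (SE). The fall of Rag1 was thus larger than that of Xrcc6 and smaller than that of Lig4 in fitted size, though these differences were not tested. Hmgb2, a DNA-bending cofactor of the recombinase, had a log2 fold change of -0.88 and an adjusted p of 0.0358, which was 0.0630 without control 69, 0.0719 without knockout 51 and 0.173 without knockout 63. Dntt was at 605 and 1703 CPM in the controls and at 932 and 735 CPM in the knockouts, inside the range of the controls.

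Of 10 accessory genes in the table, of 11 listed, 2 fell and 1 rose, against a background of 10.9% lower and 11.3% higher. Tdp2, which removes protein adducts from broken ends, was at 89.8 and 82.5 CPM in the controls and at 47.0 and 48.3 CPM in the knockouts (log2 fold change -0.85, edgeR adjusted p of 0.0150). Xrcc1, a scaffold of single-strand break repair, had a log2 fold change of -0.77 (adjusted p of 0.0259). Parp3, a poly(ADP-ribose) polymerase that acts at double-strand breaks, was at 55.1 and 49.2 CPM in the controls and at 85.7 and 107 CPM in the knockouts, a rise of 0.88 on the log2 scale (adjusted p of 0.0217). It was the 1 gene of the 4 lists that rose. Without knockout 51 the adjusted p was 0.0788 for Tdp2 and 0.0578 for Xrcc1, and without knockout 63 it was 0.0871 for Tdp2, 0.157 for Xrcc1 and 0.126 for Parp3.

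Of 14 genes of break sensing and the chromatin response in the table, of 15 listed, 2 fell and 0 rose in edgeR (5 and 0 at an unadjusted p under 0.05, 2 and 0 with DESeq2 and 1 and 0 with limma-voom), a share near the background of 10.9%. H2afx, the gene of the histone variant H2AX that is phosphorylated around breaks, was at 235 and 343 CPM in the controls and at 161 and 101 CPM in the knockouts (log2 fold change -1.14, adjusted p of 0.0457). Paxip1, which encodes the 53BP1-binding protein PTIP, was at 144 and 178 CPM in the controls and at 110 and 106 CPM in the knockouts (adjusted p of 0.0499). Both were close to the threshold: without control 69 the adjusted p was 0.0550 for H2afx and 0.107 for Paxip1, without knockout 63 it was 0.157 and 0.232, with a stricter filter 0.0526 and 0.0550, and Paxip1 also had 0.184 without knockout 51 and 0.0518 with limma-voom. Atm, the kinase that signals breaks, was at 116 and 100.3 CPM in the controls and at 133 and 128 CPM in the knockouts and did not pass (adjusted p of 0.20).

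Of 8 genes of alternative end joining and resection 1 fell and 0 rose in edgeR (2 and 0 at an unadjusted p under 0.05, and 1 and 0 with DESeq2 and with limma-voom), which is also near that background. Rbbp8, which encodes the resection factor CtIP, was at 78.7 and 76.1 CPM in the controls and at 45.3 and 43.9 CPM in the knockouts (log2 fold change -0.79, adjusted p of 0.0173). Without knockout 51 the adjusted p was 0.0856 and without knockout 63 it was 0.114. Lig3 and Lig1, the other DNA ligase genes, had log2 fold changes of 0.17 and -0.30 and adjusted p-values of 0.46 and 0.50. Polq, the polymerase theta gene of alternative joining, was at 40.2 and 48.4 CPM in the controls and at 33.9 and 23.5 CPM in the knockouts (adjusted p of 0.12).

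**Figure D5:**
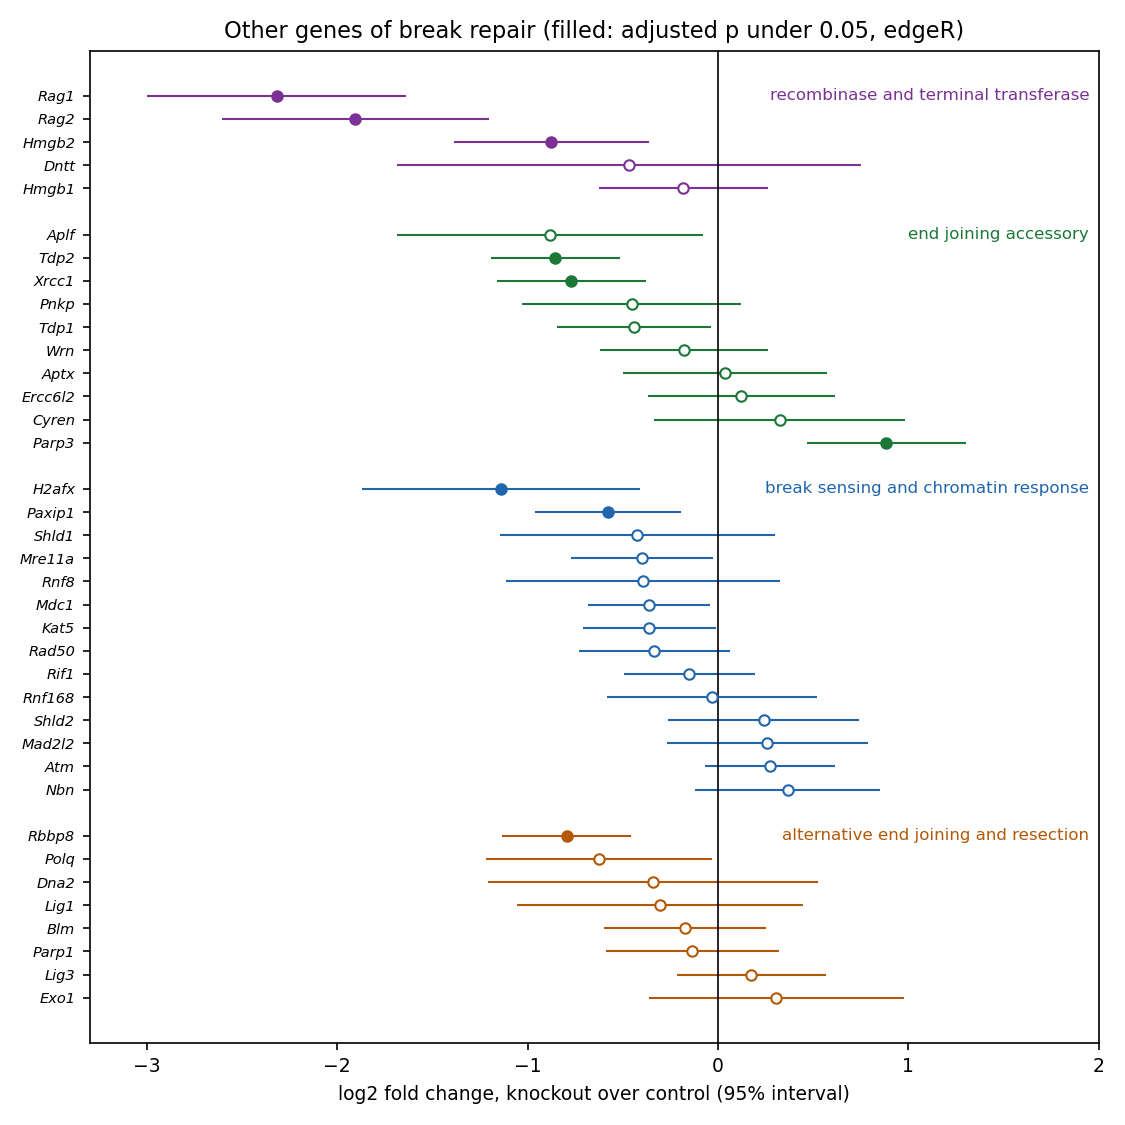
Log2 fold change, knockout over control, with its 95% interval for 37 other genes of break repair, grouped by role and filled where the edgeR adjusted p was under 0.05. Rag1 (-2.32) and Rag2 (-1.91) lie lowest, and Parp3 (0.88) is the filled symbol above 0.

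The genes whose pattern over the 4 libraries was most like that of each member that fell were found by the root mean square difference of centred log2 CPM, among 9434 other genes with a mean log2 CPM of at least 3. For Lig4 the closest was Bcl7a, at 878 and 844 CPM in the controls and 99.3 and 94.9 CPM in the knockouts, with a difference of 0.0462 on the log2 scale, followed by Hist1h1c and Mturn. For Xrcc6 the closest was Cd79a, the gene of a B cell receptor chain whose locus carries the Cre in these mice, at 658 and 624 CPM in the controls and 180 and 185 CPM in the knockouts, with a difference of 0.0838. Mbd4 and Cd69 followed. For Polm the closest were Cnr2, Cd55 and Dennd5b at differences of 0.260 to 0.287. Each of these was also higher in control 55 than in control 69, which follows from their selection for likeness to Polm in these same libraries. With 4 libraries that fall into 2 groups, likeness of this kind mostly reflects the size of the fold change.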

How the data were processed

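Pro-B cell RNA was sequenced in 4 libraries, 1 per mouse, made with the NEBNext Low Input kit, per the labels' protocols. The authors deposited raw counts per gene symbol, with 26211372 to 40647384 counts in total per library, and also a normalized signal table whose values equal the counts times a factor of each library (0.816 to 1.22). DESeq2, featureCounts, Subread 2.0.0, STAR 2.7.4a, deepTools 3.3.2 and SAMtools 1.10 are listed, with the builds GRCm38 and mm10, per the submitters' processing notes. The sources used here do not give the annotation, the strand setting or the treatment of multiply aligned reads.

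Counts were analysed across all genes with edgeR 4.0.16 in R 4.3.3: filterByExpr (minimum count 10, minimum total 15), TMM scaling, glmQLFit and glmQLFTest on genotype over 4 libraries, Benjamini-Hochberg adjustment and a threshold of 0.05. The standard error is the log2 fold change over the square root of F. Log2 CPM used a prior count of 2. Replicates of a genotype differed far beyond counting error (mean chi-square per gene of 71.7 and 51.9). P-values rest on the spread between 2 mice per genotype, with a variance for each gene that borrows from all genes tested. Counting errors ignore amplification copies. Coordinates, exon lengths and overlaps are from GENCODE M21 (GRCm38), and promoters from RefSeq (GRCm38.p6). Paxx and Shld3 were not matched, and Cyren, Shld1 and Shld2 were matched by older symbols.

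Alternatives were DESeq2 size factors, no scaling, no filter, a filter at 1 CPM in 2 libraries with a mean count of 50, DESeq2 1.42.0, limma-voom and limma 3.58.1 on log2 of the authors' values plus 1, a false discovery rate of 0.1, sex as a block, and each library left out. Named genes were the 10 members, Tnpo3, Rag1, Rag2, Dntt, up to 4 called genes per role list with the lowest adjusted p, and the 3 genes nearest in pattern to each member called. Desi1, Suv39h2, Tubgcp4, Tmem167, Atm, Lig1, Lig3, Polq, Igll1 and Pou2af1 were named after their values were seen. The members and lists were chosen with earlier results of these data known.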

Additional observations from a re-analysis of the deposited data

How the results depend on the processing

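Lig4, Polm and Xrcc6 were lower under all 13 alternatives, with log2 fold changes of -3.20 to -2.99, -3.99 to -2.56 and -1.89 to -1.75. They passed the threshold in every alternative that kept all libraries. The false discovery rate of 0.1 used the main fit, so these genes could not fail there. The number of members called lower was 3 or 4 throughout and the number called higher 0. Nhej1 passed with DESeq2 (0.0236) and at a false discovery rate of 0.1, and Poll with sex as a block and without control 55 (0.0292). Trp53bp1 ranged from -0.25 to 0.014 and changed sign, without knockout 51, and Dntt to 0.46 without control 69, neither of which passed; Dntt was at -0.998 with an adjusted p of 0.0420 without control 55. Tnpo3 had an adjusted p of 0.0603 without knockout 63. Over all genes 2232 were called lower at a false discovery rate of 0.1, against 1468 at 0.05. With 1 library left out, 530 to 1580 genes were called lower and 747 to 1649 higher, against 1524 higher with all, and of the 37 other repair genes 2 to 10 were lower and 0 to 1 higher. Over the alternatives the adjusted p ranged from 0.000109 to 0.0871 for Tdp2, 0.000683 to 0.126 for Parp3, 0.00209 to 0.157 for Xrcc1, 0.00202 to 0.157 for H2afx, 0.0208 to 0.232 for Paxip1, 0.000246 to 0.114 for Rbbp8 and 0.000572 to 0.173 for Hmgb2. A lone library of a genotype was assumed to vary like the others. The causes of these differences were not tested. The median log2 fold change of all genes moved by at most 0.046 between settings. The mouse numbers are not shared between the genotypes and give no pairing. The block on sex, which sets the female and the male mice against each other in pairs with 1 residual degree of freedom, added Poll (0.0205) to the members called, 4 in place of 3, and left the calls of the other 9 as they were.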
